A study of Mus musculus with 6 samples.

Results

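Gad1, Gad2, Slc32a1, Dlx1, Sst, Pvalb, Npy, Vip and Cck were followed here as 9 genes that mark inhibitory interneurons, chosen by name from the 32201 genes of the deposited table. All 9 were found, and all 9 were among the 13153 genes kept because their FPKM (fragments per kilobase, scaled to library size) averaged 1 or more over the 6 libraries. The libraries are ribosome-depleted total RNA from the hippocampus of male C57BL/6N mice, 8 weeks old per the labels, and every mouse had gone through chronic unpredictable mild stress, in which varied mild stressors are applied over a long period to model depression. Of these, 3 libraries come from mice given baicalin, a flavone glucuronide of Scutellaria root, at 20 mg/kg, and 3 from stressed mice given saline. The unstressed control group named in the labels is not analysed here. The labels do not say that each library is a separate animal, so p-values describe the spread between these libraries only. The comparison sets interneuron transcripts of stressed mice given baicalin against those of stressed mice given saline.

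Interneurons make the inhibitory transmitter GABA from glutamate through the glutamate decarboxylases encoded by Gad1 and Gad2, and load it into synaptic vesicles through the transporter encoded by Slc32a1. Dlx1 encodes a homeodomain transcription factor of interneurons born in the ganglionic eminences. The other genes mark subtypes: Pvalb encodes the calcium buffer parvalbumin of fast-spiking basket and axo-axonic cells, while Sst, Npy, Vip and Cck encode neuropeptides that are released beside GABA. Several of these genes are also used outside interneurons: Cck is transcribed in pyramidal cells, and Pvalb is abundant in fast-twitch skeletal muscle. In a tissue sample, fewer cells of a type and less RNA per cell cannot be told apart.

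The stretches of DNA before the starts of the peptide genes are shown because the Sst and Vip promoters are textbook examples of control by cyclic AMP through a CRE (cyclic AMP response element) with the letters TGACGTCA and the core TGACG. Each stretch is the 250 bases before the RefSeq start (GRCm38.p6), on the strand of the gene and read 5′ to 3′, and capitals mark each CRE or core on either strand. The Sst stretch (chr16:23890845-23891094, minus strand), the Vip stretch (chr10:5638968-5639217, plus strand) and the Cck stretch (chr9:121495695-121495944, minus strand) read as follows.
Sst: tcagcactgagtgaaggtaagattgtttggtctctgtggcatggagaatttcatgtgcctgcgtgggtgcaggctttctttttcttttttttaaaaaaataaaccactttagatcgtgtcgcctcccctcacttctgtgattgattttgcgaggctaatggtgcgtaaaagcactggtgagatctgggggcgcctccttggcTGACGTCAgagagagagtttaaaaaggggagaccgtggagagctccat
Vip: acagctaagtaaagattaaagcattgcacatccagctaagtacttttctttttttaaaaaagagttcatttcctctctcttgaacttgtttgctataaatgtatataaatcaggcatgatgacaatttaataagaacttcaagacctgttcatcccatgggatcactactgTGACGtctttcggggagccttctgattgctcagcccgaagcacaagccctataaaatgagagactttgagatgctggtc
Cck: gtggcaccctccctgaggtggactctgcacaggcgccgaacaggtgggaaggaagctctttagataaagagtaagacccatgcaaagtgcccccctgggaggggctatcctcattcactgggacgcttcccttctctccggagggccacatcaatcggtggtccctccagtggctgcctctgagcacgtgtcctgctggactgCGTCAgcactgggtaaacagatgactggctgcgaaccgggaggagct
The whole CRE stood 48 bases before the start of Sst, and 1.55% of 32851 such stretches in the RefSeq table hold it. The core stood 79 bases before the start of Vip and 47 before that of Cck. Both strands were searched, a whole CRE holds the core on each strand, and 17.8% of all stretches hold the core. Among the 10 stretches of the 9 genes, 4 held the core, the fourth being that of Gad2. These are matches of letters, and nothing measured in these libraries bears on binding there.

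Pvalb has 2 starts in RefSeq, and both stretches are shown because this gene had the largest difference between groups, while the deposited values are per gene and do not separate the starts. The outer stretch lies at chr15:78206401-78206650 and the inner at chr15:78204238-78204487, both on the minus strand. Neither holds the core, so no base is in capitals. Neither holds the letters TATAAA, which capitals do not mark and which the Vip stretch above holds.
Pvalb outer: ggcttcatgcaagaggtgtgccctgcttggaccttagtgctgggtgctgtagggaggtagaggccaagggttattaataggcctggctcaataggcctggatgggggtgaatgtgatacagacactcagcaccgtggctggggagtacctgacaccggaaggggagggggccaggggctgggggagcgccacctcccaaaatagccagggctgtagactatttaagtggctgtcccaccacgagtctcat
Pvalb inner: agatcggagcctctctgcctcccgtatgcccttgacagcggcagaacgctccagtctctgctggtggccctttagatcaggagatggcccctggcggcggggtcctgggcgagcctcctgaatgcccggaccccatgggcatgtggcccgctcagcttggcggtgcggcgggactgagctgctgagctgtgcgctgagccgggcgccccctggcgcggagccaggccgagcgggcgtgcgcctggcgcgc

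Per length, the peptide genes Sst, Cck and Npy were the most abundant of the 9, while Vip was among the lowest. Mean FPKM over the 6 libraries was 197.7 ± 15.7 (SD) for Sst and 152.7 ± 11.2 for Cck, so that 99.0% and 98.5% of the genes tested had a lower level. Npy followed at 53.2 ± 2.77, Pvalb at 42.5 ± 17.3 and Gad1 at 39.6 ± 0.97. The FPKM ranges of Npy and Pvalb overlapped, as did those of Pvalb and Gad1. Gad2 was at 18.7 ± 1.29 FPKM and Slc32a1 at 14.7 ± 1.10, with ranges that did not overlap each other or their neighbours in the order. Vip (4.42 ± 0.36 FPKM) and Dlx1 (4.30 ± 0.70) were lowest and overlapped, below the median of 5.71 FPKM over the genes tested.

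**Figure D1:**
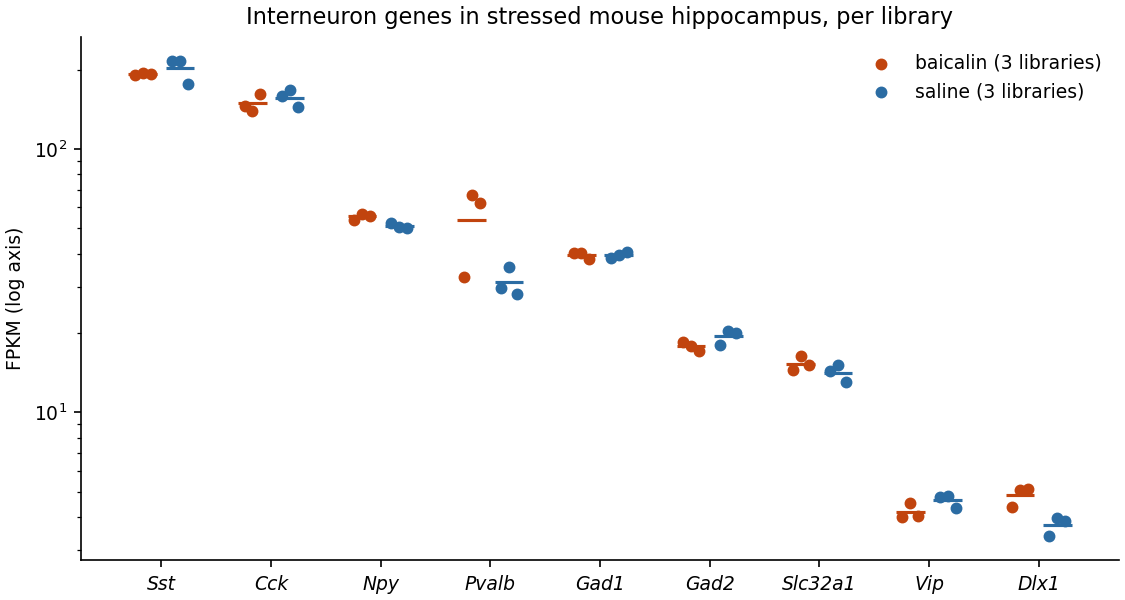
FPKM on a log axis of the 9 genes in each of 3 baicalin and 3 saline libraries, with a line at each group's mean. Sst and Cck lie highest and Vip and Dlx1 lowest, and Pvalb is the gene whose baicalin libraries spread most, from 32.7 to 66.8 FPKM.

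None of the 9 genes passed the adjusted threshold of 0.05 between baicalin and saline in edgeR's quasi-likelihood test, where 6 of 13153 genes (0.0456%) did, 0.0152% higher and 0.0304% lower with baicalin. At an unadjusted p under 0.05 there were 2 of the 9, Dlx1 and Pvalb, against 11.8% of all genes tested. DESeq2, which called 1.61% of genes (0.974% higher with baicalin), called 1 of the 9, Dlx1, as higher. The groups did not overlap for Dlx1 and Npy, with baicalin above saline in both, and for 19.4% of all genes (9.93% with baicalin above and 9.52% below). Of the 9 log2 changes 5 were positive, with a median of 0.01 beside -0.0006 over all genes tested; under TPM scaling both medians were -0.07. In all that follows, CPM are counts scaled to library size with TMM factors, and log2 changes are baicalin minus saline.

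**Figure D2:**
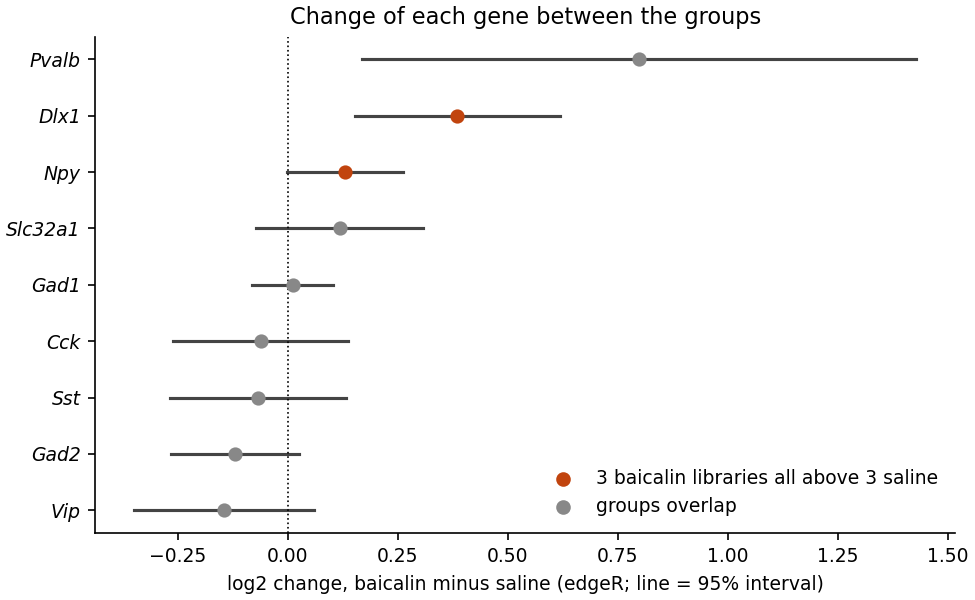
Log2 change of each of the 9 genes, baicalin minus saline, from edgeR, with its 95% interval. Pvalb (0.80) has the widest interval and Gad1 (0.01) the narrowest, and red points are the genes, Dlx1 and Npy, whose 3 baicalin libraries all lie above the 3 saline libraries.

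For GABA synthesis, Gad1 (ENSMUSG00000070880, chromosome 2, 70553072 to 70602014, mm10) varied least of the 9 over all 6 libraries, though within groups Sst with baicalin and Npy with saline varied less. Its CPM were 356, 353 and 342 in baicalin libraries 1 to 3 and 338, 349 and 356 in saline libraries 1 to 3. The groups overlapped almost fully, and the log2 change was 0.01 ± 0.04 (SE, adjusted p = 0.920 in edgeR) with a 95% interval of -0.08 to 0.10. Under TPM scaling it was -0.07, as was the median over all genes tested. Gad2 (ENSMUSG00000026787, chromosome 2, 22622205 to 22693874) had CPM of 126, 120 and 118 with baicalin and 122, 139 and 135 with saline. Saline libraries 2 and 3 lay above every baicalin library, while saline library 1 lay among them. Its log2 change was -0.12 ± 0.06 (SE, adjusted p = 0.482 in edgeR), with an interval of -0.26 to 0.03.

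The balance between the decarboxylase transcripts was read within each library. Gad2 counts were 0.354, 0.340 and 0.343 of Gad1 counts in the baicalin libraries and 0.359, 0.397 and 0.378 in the saline libraries. The groups did not overlap, though the nearest libraries were close. The log2 ratio averaged -1.53 ± 0.03 in the baicalin group and -1.40 ± 0.07 in the saline group (SD, n = 3 each), and a two-sided exact permutation test gave p = 0.10, the smallest that 3 against 3 allows. This ratio was added after the values were seen.

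Slc32a1 (ENSMUSG00000037771, chromosome 2, 158610767 to 158615748), the vesicular GABA transporter, had CPM of 46.6, 52.4 and 49.3 with baicalin and 46.1, 48.8 and 41.8 with saline. The groups overlapped, and saline library 3 was lowest. The log2 change was 0.12 ± 0.08 (SE, adjusted p = 0.584 in edgeR). The antisense gene Gm14205 shares 697 exonic bases with it in GENCODE but had no more than 27 counts in any library.

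Dlx1 (ENSMUSG00000041911, chromosome 2, 71528113 to 71533980) was higher in every baicalin library than in any saline library. Its CPM were 27.4, 31.5 and 32.3 with baicalin and 20.99, 24.9 and 24.0 with saline. The means were 30.4 ± 2.62 and 23.3 ± 2.03 CPM (SD, n = 3 each), a 1.31-fold difference. The log2 change was 0.39 ± 0.10 (SE) with an interval of 0.15 to 0.62. It did not pass in edgeR (adjusted p = 0.322) and passed in DESeq2 (adjusted p = 0.0463); over all alternatives the adjusted p ran from 0.0463 to 0.856.

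Dlx1 shares 335 of its 5396 exonic bases with Dlx1as, an antisense gene on the other strand, and no source used here says whether reads were counted by strand. Dlx1as had 340, 183 and 213 counts with baicalin and 281, 271 and 295 with saline. Dlx1as was thus lowest in baicalin libraries 2 and 3, where Dlx1 was highest, and highest in baicalin library 1. Summed over both genes, CPM were 32.8, 34.3 and 35.9 with baicalin and 25.3, 29.0 and 28.3 with saline. The groups of the sum did not overlap either (two-sided exact permutation p = 0.10, the smallest possible). Most counts of the sum are those of Dlx1, which separated the groups by itself, so the sum is not an independent check.

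Pvalb (ENSMUSG00000005716, chromosome 15, 78191114 to 78206400) showed the largest difference and the largest disagreement between replicates. Its CPM were 39.3, 79.6 and 75.7 in baicalin libraries 1 to 3 and 35.4, 42.7 and 33.8 in saline libraries 1 to 3. Baicalin libraries 2 and 3 were far above the rest, and baicalin library 1 lay inside the saline range. The means were 64.9 ± 22.2 and 37.3 ± 4.76 CPM (SD, n = 3 each), and the log2 change was 0.80 ± 0.26 (SE, adjusted p = 0.371 in edgeR). Without baicalin library 1 the log2 change was 1.05 (adjusted p = 0.0455 in edgeR, where 0.297% of genes passed), and with baicalin library 1 alone against the 3 saline libraries it was 0.07 (adjusted p = 0.936 in edgeR).

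The genes whose pattern over the 6 libraries was most like that of Pvalb, by Pearson r of log2 CPM among 6640 named genes averaging 5 FPKM or more, were Myh4, Tnni2 and Atp2a1. Myh4 encodes a fast myosin heavy chain, Tnni2 the fast skeletal troponin I and Atp2a1 the fast-twitch sarcoplasmic calcium pump. Myh4 was at 2.56, 15.2 and 15.6 FPKM in the baicalin libraries and 1.68, 2.61 and 1.48 in the saline libraries, with r = 0.996 to Pvalb over 6 libraries. A list of 16 skeletal muscle genes, written after this was seen, was therefore measured. The summed FPKM of the list was 47.8, 255.9 and 257.7 in baicalin libraries 1 to 3 and 34.2, 43.9 and 34.6 in saline libraries 1 to 3.

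All 16 muscle genes were higher in baicalin libraries 2 and 3 than in the other 4 libraries, and none was at 0 in any library. The list took 0.0625% and 0.0628% of all counts in those libraries and 0.0121 to 0.0151% in the others. Mylpf, a fast skeletal myosin light chain, was at 37.4 and 40.1 FPKM there against 2.91 to 5.20 elsewhere, and Ckm, muscle creatine kinase, at 17.1 and 18.4 against 1.66 to 2.92. Of 14 muscle genes tested, 0 passed in edgeR (adjusted p from 0.310 to 0.544). Pvalb was 2.05-fold higher in baicalin libraries 2 and 3 than in the others and the muscle sum 6.40-fold. In baicalin library 1, with a muscle sum just above the saline libraries, Pvalb was within the saline range, and the part of muscle transcripts in the Pvalb difference was not tested beyond these values.

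**Figure D3:**
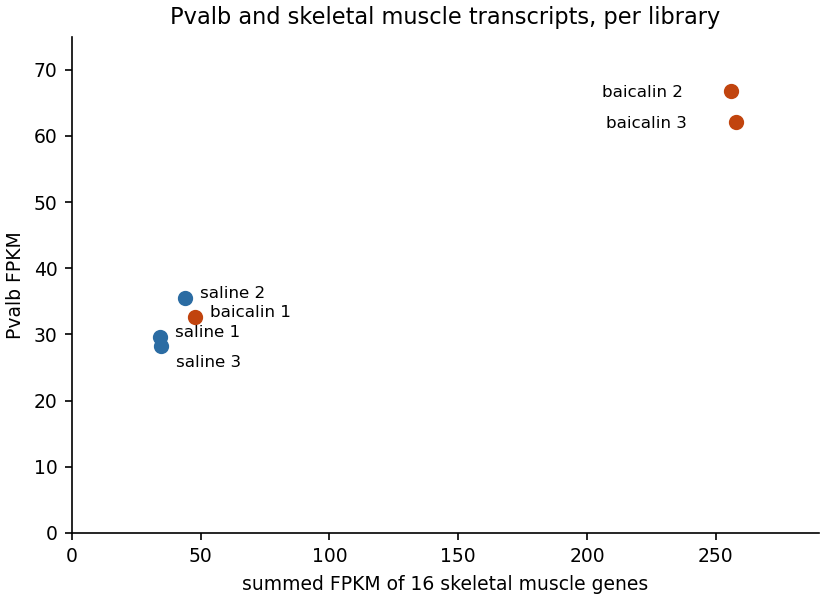
Pvalb FPKM against the summed FPKM of 16 skeletal muscle genes, 1 point per library. Baicalin libraries 2 and 3 stand apart on both axes, at 255.9 and 257.7 summed FPKM and 66.8 and 62.2 Pvalb FPKM, while baicalin library 1 lies with the saline libraries.

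Genes of the related lists tied to parvalbumin cells were also read, here Kcnc2 and Hapln1. Kcnc2, a fast potassium channel gene of fast-spiking cells, was at 7.70, 8.13 and 7.26 FPKM with baicalin and 8.32, 8.47 and 8.62 with saline (log2 change -0.13 ± 0.05, SE, adjusted p = 0.420 in edgeR). Hapln1, a link protein of the perineuronal nets that wrap these cells, was at 3.13, 2.61 and 2.57 against 3.02, 3.06 and 3.18 FPKM (-0.15 ± 0.10, adjusted p = 0.568 in edgeR). Kcnc2 lay below every saline library in every baicalin library, and Hapln1 in baicalin libraries 2 and 3 only. Other listed genes tied to such cells, among them Kcnc1, are not given here. The part of parvalbumin cells in the Pvalb difference was not tested.

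Among the peptides, Sst (ENSMUSG00000004366, chromosome 16, 23889573 to 23890958), the inhibitory peptide somatostatin of dendrite-targeting cells, had CPM of 159, 161 and 162 with baicalin. In the saline libraries it was at 179, 180 and 146. The baicalin libraries were nearly equal and lay between saline library 3 and the other saline libraries. The coefficient of variation was 0.87% with baicalin and 11.6% with saline, beside medians of 7.12% and 6.68% over the genes tested. The log2 change was -0.07 ± 0.08 (SE, adjusted p = 0.764 in edgeR), and -0.16 without saline library 3.

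Npy (ENSMUSG00000029819, chromosome 6, 49822710 to 49829507), which encodes neuropeptide Y of dendrite-targeting and neurogliaform cells, was slightly higher in every baicalin library. Its CPM were 35.1, 36.8 and 36.9 with baicalin and 33.9, 33.2 and 32.4 with saline. The replicates were tight and the groups did not overlap, but the difference was 1.09-fold. The log2 change of 0.13 ± 0.06 (SE, interval -0.002 to 0.26) did not pass (adjusted p = 0.430 in edgeR).

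Vip (ENSMUSG00000019772, chromosome 10, 5639218 to 5647617) encodes vasoactive intestinal peptide, a marker of cells that mostly inhibit other interneurons. Its CPM were 15.8, 17.6 and 16.1 with baicalin and 18.7, 19.0 and 16.95 with saline. The groups overlapped only where baicalin library 2 lay above saline library 3, and the log2 change was -0.14 ± 0.09 (SE, adjusted p = 0.535 in edgeR). Cck (ENSMUSG00000032532, chromosome 9, 121489824 to 121495639), cholecystokinin, had CPM of 220, 208 and 247 with baicalin and 238, 252 and 215 with saline. These values were interleaved, with a log2 change of -0.06 ± 0.08 (SE, adjusted p = 0.786 in edgeR).

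To compare the subtype genes with the interneuron signal of the same library, each was set against the mean log2 CPM of Gad1, Gad2 and Slc32a1. That mean varied little, from -0.05 to 0.06 around its average over the 6 libraries. Relative to it, Dlx1 was 0.38 higher with baicalin on the log2 scale and Npy 0.13 higher, both without overlap of the groups, and Pvalb 0.73 higher with overlap. Relative to Slc32a1 alone, the Npy difference was 0.011, and that of Dlx1 was 0.27. Vip was at -0.15, Sst at -0.07 and Cck at -0.07. Two-sided exact permutation tests over the 6 libraries gave p = 0.10 for Dlx1 and Npy, the smallest possible, 0.20 for Pvalb and Vip, 0.60 for Sst and 0.70 for Cck, with adjusted values of 0.30 to 0.70 over these 6 genes.

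**Figure D4:**
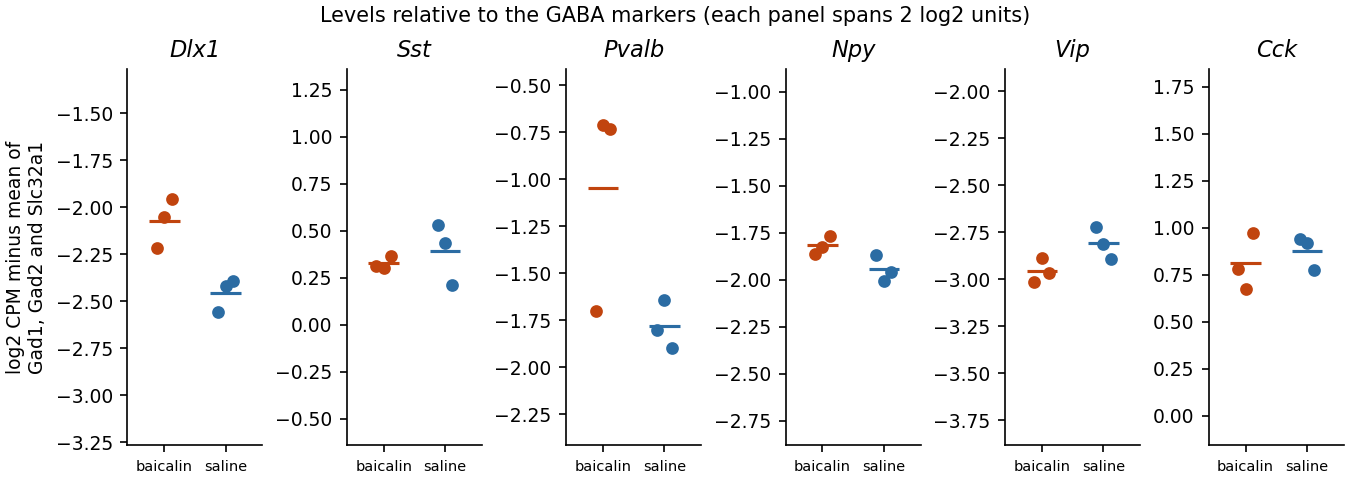
Log2 CPM of each subtype gene minus the mean of Gad1, Gad2 and Slc32a1 in the same library, with a line at each group mean; every panel spans 2 log2 units. Dlx1 and Npy separate the groups, and Pvalb is high in baicalin libraries 2 and 3 (-0.71 and -0.73) and not in library 1 (-1.70).

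The 9 genes did not vary as one block over the 6 libraries. Of 36 pairs, 17 had a positive Pearson r of log2 CPM, with a median of -0.04 and values of 0.46 for Gad1 with Gad2 and -0.84 for Gad2 with Npy. The r was 0.84 for Dlx1 with Npy and 0.89 for each of these with Pvalb. With group means removed it was 0.22 for Dlx1 with Npy, 0.76 for Dlx1 with Pvalb, 0.78 for Npy with Pvalb and 0.82 for Gad1 with Gad2. These are descriptions over 6 libraries that share the difference between groups and the libraries that stand apart. Dlx1 and Npy also had r = 0.91 and 0.90 with the log2 muscle sum, whose part in their differences was not tested. In baicalin library 1 the muscle sum (47.8 FPKM) was above every saline library (34.2 to 43.9), as were Dlx1 and Npy. For that library alone the log2 change against the 3 saline libraries was 0.24 ± 0.13 (SE) for Dlx1 (adjusted p = 0.856 in edgeR) and 0.08 ± 0.08 for Npy (adjusted p = 0.897 in edgeR).

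By the same measure as for Pvalb, the genes most like Gad1 were Mccc2, B4galt4 and Lars (r = 0.98, 0.97 and 0.96 over 6 libraries). For Sst they were Dhx57, Rbm42 and Tspan5 (r = 0.99 each), and for Cck they were Cnih2, Bri3 and Tmeff1 (r = 0.99, 0.98 and 0.98). None of these is an interneuron marker in the lists used here. The search covered 6640 genes, 5 of which had r above 0.95 with Gad1, 10 with Sst, 16 with Cck and 36 with Pvalb.

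The wider machinery of GABA handling and peptide signalling was read from 7 lists of related genes, and in each of them 0 genes passed in edgeR. At an unadjusted p under 0.05 there were 2 of 9 tested for GABA uptake and supply, 1 of 12 for interneuron transcription factors, 5 of 23 for other subtype genes, 1 of 9 for peptide receptors, 2 of 12 for peptide processing, 1 of 8 for the inhibitory postsynapse and 1 of 5 for perineuronal nets, beside 11.8% of all genes. DESeq2 called 1 gene in each of 3 of these lists, Glul, Dlx1 (also counted among the transcription factors) and Sstr4, and 0 in the other 4. Median log2 changes were -0.07, -0.04, -0.01, -0.01, -0.04, -0.06 and -0.14 in the same order, beside -0.0006 over all genes. Leaving out 1 library turned the sign of 4 of these medians: GABA uptake and supply was at 0.019 without saline library 3, transcription factors at 0.054 and other subtype genes at 0.011 without saline library 1 (the factors also at 0.0004 without baicalin library 2), and receptors at 0.036 without baicalin library 1 or 2, 0.041 without saline library 1 and 0.010 without saline library 2. The median of the 9 genes was -0.005 without baicalin library 1 and -0.008 without saline library 1.

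Among genes that clear GABA, the astrocytic transporter gene Slc6a11 was at -0.09 ± 0.05 on the log2 scale (SE) and the transaminase gene Abat at -0.07 ± 0.07. Their adjusted p were 0.500 and 0.699 in edgeR. Glul, glutamine synthetase of astrocytes, was named after its values were seen. It was at 463, 492 and 485 FPKM with baicalin and 389, 399 and 414 with saline, with no overlap and a log2 change of 0.27 ± 0.04 (SE). It did not pass in edgeR (adjusted p = 0.213) and passed in DESeq2 (adjusted p = 0.000584).

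Of the 12 genes tested in the list of interneuron transcription factors, which includes Erbb4, 2 had groups that did not overlap. These were Dlx1 and Erbb4, beside 19.4% of all genes tested without overlap. Dlx6 was at -0.12 ± 0.18 on the log2 scale (SE; adjusted p = 0.808 in edgeR) and Lhx6, a factor of Sst and Pvalb cells, at -0.08 ± 0.10 (adjusted p = 0.774 in edgeR). Dlx2, the neighbour of Dlx1, was below the filter, at 0.86, 0.95 and 0.69 FPKM with baicalin and 0.99, 1.07 and 1.03 with saline. Erbb4, the neuregulin receptor of interneurons, was at 2.44, 2.40 and 2.31 FPKM with baicalin and 0.11, 1.41 and 0.12 with saline (adjusted p = 0.445 in edgeR). Its groups did not overlap, and saline library 2 stood far above the other saline libraries.

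Of other subtype genes, Calb2, the calretinin gene of some interneurons and of mossy cells, was at 11.6, 11.1 and 12.8 FPKM with baicalin and 11.6, 5.60 and 6.64 with saline. Saline library 1 was level with the baicalin libraries, and the log2 change was 0.58 ± 0.27 (SE, adjusted p = 0.446 in edgeR; 0.96 without saline library 1 and 0.38 without saline library 2). Reln was at -0.08 ± 0.05. Cnr1, the cannabinoid receptor gene of Cck basket cells, was named after its values were seen. It lay lower in every baicalin library (25.3, 23.8 and 25.2 against 27.6, 29.2 and 27.0 FPKM) and did not pass (-0.16 ± 0.05, adjusted p = 0.360 in edgeR).

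Among receptors for these peptides, the somatostatin receptor gene Sstr4 had the largest difference. It was at 6.08, 7.77 and 5.94 FPKM with baicalin and 10.4, 12.1 and 8.82 with saline. The groups did not overlap, and the log2 change was -0.66 ± 0.16 (SE). Sstr4 did not pass in edgeR (adjusted p = 0.322) and passed in DESeq2 (adjusted p = 0.0108). Sstr1 (0.27 ± 0.26), Sstr2 (-0.001 ± 0.20; 0.008 with upper-quartile factors) and Sstr3 (-0.07 ± 0.10) had overlapping groups, and the difference between Sstr4 and its paralogs was not tested.

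The neuropeptide Y receptor gene Npy5r lay higher in every baicalin library, at 3.36, 3.17 and 3.78 FPKM against 2.74, 3.01 and 3.03 (0.24 ± 0.11, adjusted p = 0.441 in edgeR). Npy1r was at 0.14 ± 0.10 and Npy2r at -0.01 ± 0.07, both with overlap. Vipr1 was at -0.10 ± 0.08 and Cckbr at -0.02 ± 0.19, while Vipr2 was below the filter at 0.06 to 0.17 FPKM. Among peptide processing enzymes, Pcsk2 was at -0.03 ± 0.03 and Cpe at 0.05 ± 0.04. With TPM scaling Cpe was at -0.03, where the median over all genes tested was -0.07. At the inhibitory postsynapse, the scaffold gene Gphn was at -0.09 ± 0.06 and Slc12a5, the neuronal chloride extruder, at -0.13 ± 0.06 (adjusted p = 0.422 in edgeR), with every baicalin library below saline for Slc12a5. All values here are log2 changes with their SE.

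**Figure D5:**
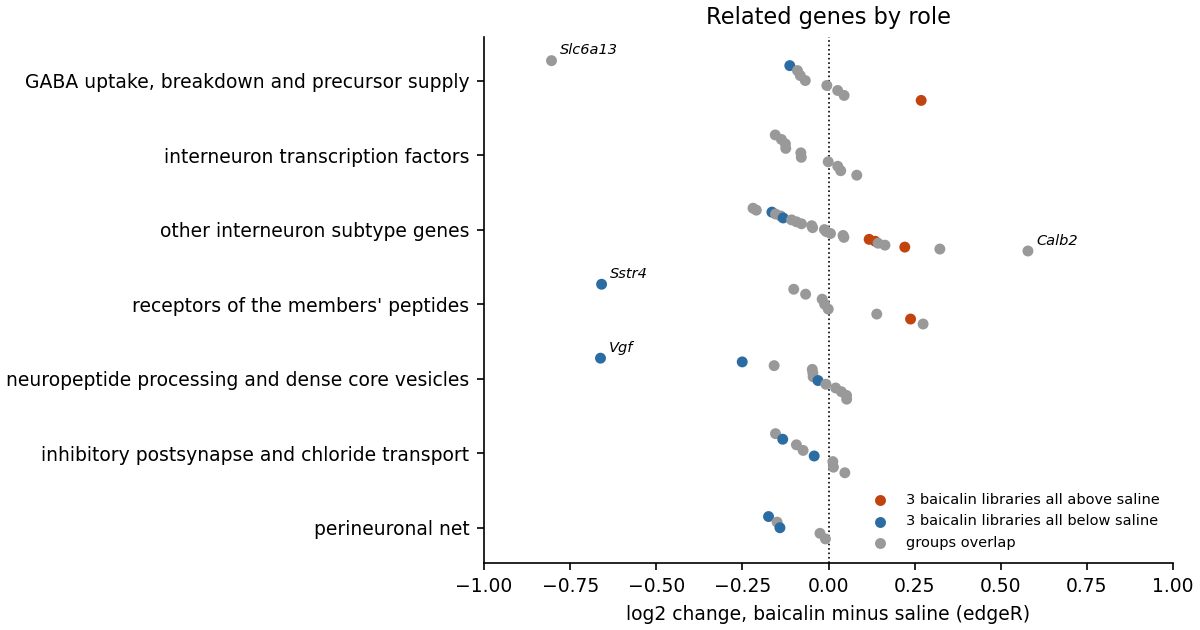
Log2 change of the genes tested in each of 7 lists of related genes, 1 point per gene, with the 9 genes themselves and Erbb4 (2.12) left out. Slc6a13 (-0.80) lies farthest to the left with saline library 3 at 4.07 FPKM and the other saline libraries below every baicalin library, Sstr4 (-0.66) and Vgf (-0.66) lie left with every baicalin library below saline, Vgf with saline library 3 far above the rest (30.1 FPKM), and Calb2 (0.58) far to the right with overlapping groups.

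Library totals were 61303274 to 67957752 counts, and the 9 genes had between 962 and 24020 counts per library. Markers of hippocampal excitatory neurons were present, with a summed level of 1426 to 1619 FPKM with baicalin and 1499 to 1603 with saline. Dentate granule markers summed to 52.0 FPKM in saline library 2 and 77.5 to 83.5 in the others. Choroid plexus markers summed to 64.8 FPKM in baicalin library 2 and 37.7 in saline library 3 against 11.1 to 21.1 elsewhere. Cortical markers summed to 37.2, 39.9 and 40.02 FPKM with baicalin and 33.2, 33.1 and 34.2 with saline. CA2 and CA3 pyramidal markers summed to 421 to 434 against 408 to 409, so both sums separated the groups as Dlx1 and Npy did. With each tested gene weighted equally, as the mean of log2 CPM around each gene's average, the CA2 and CA3 groups overlapped. They were at 0.09, -0.01 and -0.03 with baicalin and -0.12, 0.04 and 0.03 with saline. By that measure the cortical groups did not overlap, at 0.03, 0.10 and 0.03 against -0.06, -0.01 and -0.09. Genes of these lists went both ways. In the cortical list Rprm (log2 change 0.40) and Lamp5 (0.22) lay above saline in every baicalin library, Tbr1 was at 0.03 and Cux2 at -0.21. Rorb, below the filter, was lower in every baicalin library (0.72 to 0.90 FPKM against 0.94 to 1.02). Lamp5 is also a gene of some interneurons, so the cortical sum does not stand for cortex alone. The cortical groups without Lamp5 were not tested. In the CA2 and CA3 list Pcp4 (0.40) lay above saline, Rgs14 (-0.18) and Dkk3 (-0.11) below, and Amigo2, Bok and Nptx1 overlapped. Meningeal markers summed to 12.9 FPKM in saline library 3 and 7.29 to 8.63 elsewhere. Striatal markers, some of which sit in Dlx-expressing neurons, summed to 34.9 to 39.4 FPKM with baicalin and 36.7 to 38.7 with saline, with Drd1, Drd2 and Adora2a under a mean of 1 FPKM. Of the markers for striatum, thalamus, cortex and choroid plexus none was at 0 in all libraries. The part of all these marker sums in the differences above was not tested.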

How the data were processed

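Whole-number counts and FPKM values for 32201 genes were deposited by the authors, both per the file headers; the counts are not normalized, and the FPKM are scaled by the authors to length and library. HISAT2, StringTie, limma, DESeq2 and bcl2fastq 2.0, with the build mm10, are named without roles or options, per the submitters' processing notes. A further 12 columns of per-sample values fit none of the labels and were left aside. Total counts were 61303274 to 67957752 per library. Genes averaging 1 FPKM or more were kept (13153). Counts were scaled by TMM and tested with edgeR 4.0.16 (quasi-likelihood, R 4.3.3) with treatment as the only term, Benjamini-Hochberg adjustment over all genes tested and a threshold of 0.05. SE is the size of the log2 change over the square root of F. DESeq2 1.42.0 and limma 3.58.1 served as alternatives. The procedure was tested on simulated counts. Of the 9 genes, 7 had the same coordinates in GENCODE M21, which gave exon overlaps. Stretches before gene starts come from RefSeq GRCm38.p6. The 9 genes and the lists of related genes were chosen with earlier results of these data known. The rule for named genes fixed all 9, a set of related genes whatever they showed, and the 3 genes most like Gad1, Sst, Pvalb and Cck; genes named outside it are marked in the text, and the muscle genes, Dlx1as, Gm14205, Erbb4, Slc6a13 and Vgf were also chosen after their values were seen.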

Additional observations from a re-analysis of the deposited data

How the results depend on the processing

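The number of the 9 genes called was 0 in 17 of 19 alternatives, 1 (Dlx1) with DESeq2, and 0 to 1 when leaving out 1 library, the 1 being Pvalb without baicalin library 1. Genes called over the whole table numbered 6 in the main test, 211 with DESeq2, 0 with a replicate block, 14 with baicalin library 1 alone against saline (added after seeing the data; the lone library is assumed to vary like the saline group) and 2 to 39 without 1 library (39 when baicalin library 1 was left out, 2 for baicalin library 3, 10 for saline library 2 and 14 for saline library 3); the cause was not tested. Deviations of same-numbered libraries correlated at 0.12, 0.08 and 0.01 over genes, beside -0.10 to 0.04 for differently numbered libraries. Every library but baicalin library 3 correlated best with its own number. These weak values do not settle whether replicate numbers pair the libraries. Dlx1 passed with DESeq2 (0.38), as did Sstr4 (-0.66) and Glul (0.27). The directions of Gad2, Slc32a1, Dlx1, Sst, Pvalb, Npy, Vip and Cck held in every alternative run for them. Under TPM scaling Gad1 was -0.067 and Cpe -0.026, where the median over all genes tested was -0.074. With upper-quartile factors Sstr2 was 0.0079. With baicalin library 1 alone Npy2r was 0.069 and Hapln1 0.026. Without 1 library the log2 change ran from -0.0083 to 0.028 for Gad1, -0.26 to 0.049 for Dlx6, -0.21 to 0.14 for Sstr2, -0.16 to 0.041 for Sstr3, -0.058 to 0.036 for Npy2r and -0.23 to 0.11 for Cckbr. Npy relative to Slc32a1 alone was 0.011, against 0.13 relative to the mean of the GABA markers. Relative to that mean the log2 difference ran from -0.16 to 0.0031 for Sst and -0.15 to 0.0022 for Cck. Dlx1 and Vip have no value with a filter of at least 5 FPKM.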
